A study of Drosophila melanogaster with 2 samples.

Results

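The odd-skipped family of Drosophila melanogaster holds 4 zinc finger genes, odd, sob, drm and bowl, and all 4 lie on chromosome arm 2L. Every peak summit of the pooled thresholded list was taken that lay in the body of one of these genes, within 10 kb of either end, or in a stretch between neighbouring members of at most 50 kb. This choice used gene positions only, and it gave 20 of the 3354 pooled summits. The lists came from ChIP-seq, which sequences the DNA that is precipitated with a protein, on whole embryos aged 0 to 24 h. The embryos were transgenic and carried Nf-YA fused to eGFP, and an antibody against GFP was used to pull the fusion down. There was 1 group of 2 biological replicates, both from 1 strain, with no embryos of another genotype or age and with their sex not collected. The expression of the fusion relative to the native protein was not analysed here, nor was the control library that the labels name. Because whole embryos of all ages were mixed, binding in fewer cells and weaker binding in every cell cannot be told apart.

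NF-Y is a trimeric transcription factor whose A subunit reads the CCAAT box in DNA. The odd-skipped genes encode transcription factors with C2H2 zinc fingers that share a conserved finger domain. Odd is a pair-rule repressor that patterns the segments of the early embryo. Drm, a short family member, binds the protein Lines and frees Bowl from its inhibition, and both are needed to pattern the hindgut and the foregut. Bowl also acts in the terminal regions of the embryo, and odd, sob and drm act downstream of Notch in the joints of the developing leg. The role of sob alone is less well known, and its expression largely follows that of odd.

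The sequences around the tallest start-site summit of each gene are shown because these positions give the family its common feature, a pooled summit close to a start site. They were read from build dm6 in the direction of the gene, 5′ to 3′, and span 50 bases on each side of the summit. Capitals mark matches on either strand to the TATA box (TATAAA), to the GATA factor letters (GATAA) and to the GAGA factor letters (GAGAG). None of the 4 windows holds CCAAT. The drm window is chr2L:3540105-3540205 on the plus strand, the sob window chr2L:3580867-3580967 on the minus strand, the odd window chr2L:3606749-3606849 on the minus strand and the bowl window chr2L:3771451-3771551 on the plus strand.
drm: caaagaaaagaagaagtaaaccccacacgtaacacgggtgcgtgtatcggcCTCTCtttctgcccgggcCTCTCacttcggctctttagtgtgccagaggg
sob: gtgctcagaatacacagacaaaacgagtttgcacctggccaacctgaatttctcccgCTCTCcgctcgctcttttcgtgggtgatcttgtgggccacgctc
odd: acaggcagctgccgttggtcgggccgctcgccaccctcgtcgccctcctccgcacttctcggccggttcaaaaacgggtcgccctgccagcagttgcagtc
bowl: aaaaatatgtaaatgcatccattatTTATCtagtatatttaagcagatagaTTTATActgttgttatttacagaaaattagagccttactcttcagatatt

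The drm and sob windows hold GAGAG, read here as CTCTC on the strand shown, and the odd window holds none of the motifs sought. The bowl window holds GATAA and TATAAA on the opposite strand and differs from the others in base composition. Its GC content was 23.8%, against 54.5% at drm, 54.5% at sob and 68.3% at odd. A lower peak overlaps the bowl peak, with its summit 7 bp after the first bowl start site. The window of that lower peak had a GC content of 56.4% and holds GAGAG. The difference of bowl from the others thus depends on which of the overlapping peaks is read.

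CCAAT stood within 50 bp of 3 of the 20 summits, and none of those was the start-site summit of a gene. Beyond that distance, the nearest CCAAT was 69 bp from the tallest start-site summit of drm, 79 bp at sob, 112 bp at odd and 345 bp at bowl. The runs below are shown because they are the only CCAAT boxes within 50 bp of a family summit. Each run spans 12 bases on either side of the box in capitals. They lie in a 5′UTR exon of drm (chr2L:3545289-3545317, plus strand), downstream of sob (summit at 3574150, minus strand) and in the coding sequence of bowl (summit at 3780077, plus strand).
drm, 5′UTR exon: gctcttcaccgaCCAATcagccaagaagg
sob, downstream: tcggtatgggcaCCAATagaccagagtaa
bowl, coding exon: cgggtagtaattCCAATtacgaaatcatt

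The box in drm is the only one of the 3 within the longer NF-Y motif, which is a pair of purines, CCAAT, C or G, and a purine. It runs from 3545299 to 3545307 on 2L and its middle is 38 bp from the summit. The boxes near the sob and bowl summits are 28 and 27 bp away.

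Each of the 4 genes had a pooled summit within 500 bp of a start site, against 12.5% of the 13945 protein-coding genes (1737). The 4 genes were proposed with results of these data known, so the count is a description. The peak signal is the value deposited by the authors, and its scale is not stated in the files. Over all pooled peaks it ran from 2.07 to 1299 with a median of 87.4. At the start sites the pooled signal was 230 for bowl, 211 for odd, 188 for drm and 60.9 for sob. The first 3 lay above 91.0%, 89.2% and 86.5% of pooled peaks, and the sob value lay above 16.3%. Among the 1737 genes with such a summit, 224 had a higher value than bowl, 272 than odd, 335 than drm and 1563 than sob.

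**Figure D1:**
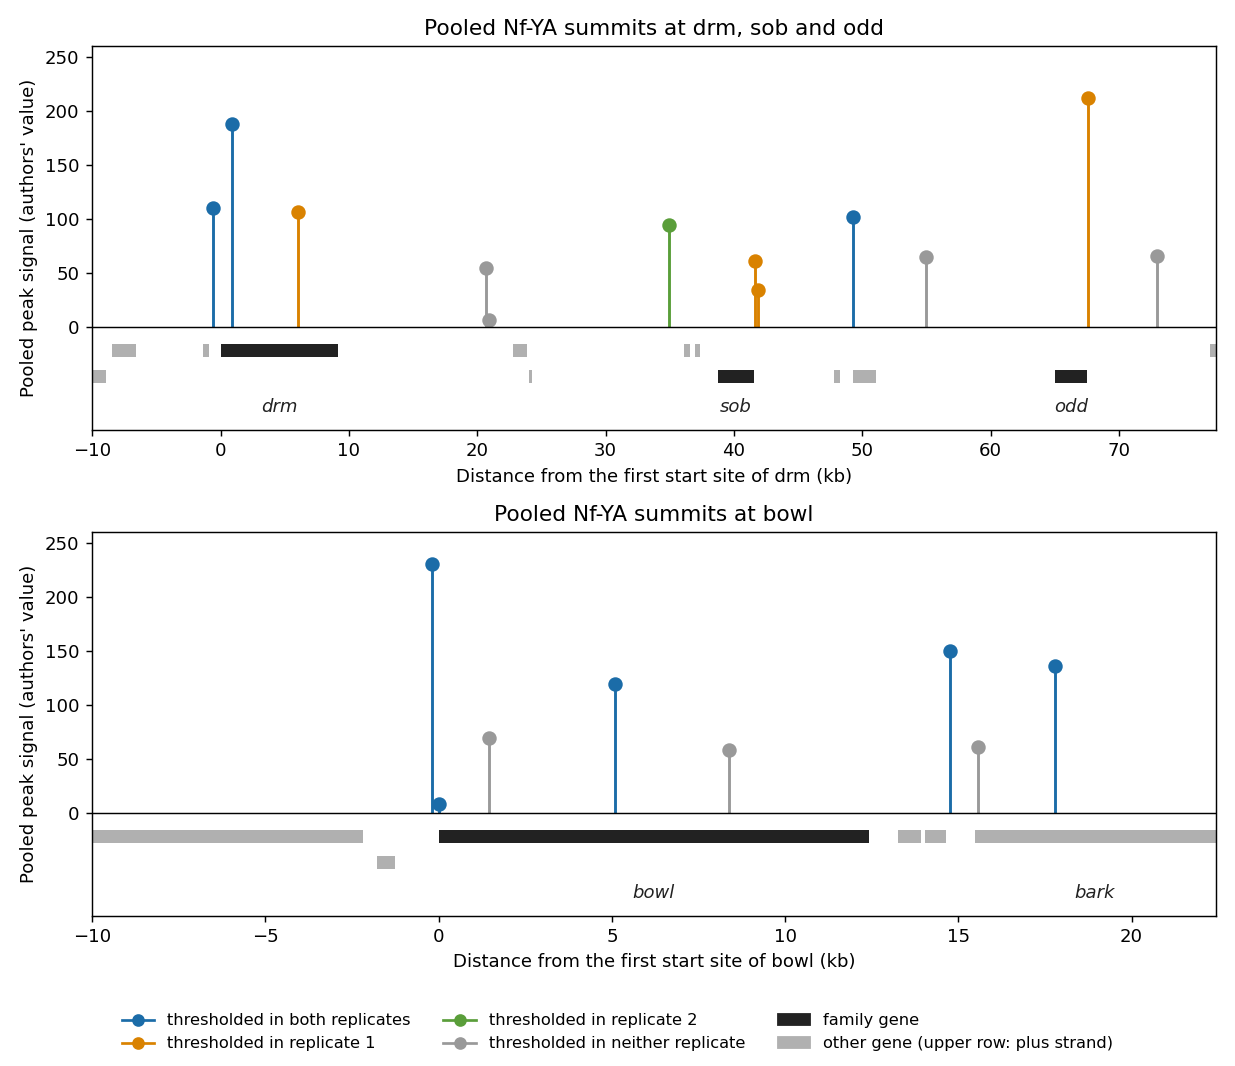
Pooled summits by distance in kb from the first start site of drm (upper panel) and of bowl (lower panel), with the authors' pooled peak signal on the vertical axis. Colours give the replicates whose thresholded peaks overlap the pooled peak, and boxes are gene bodies. The tallest summit of each panel stands at a start site, 211 at odd and 230 at bowl.

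The 20 summits fell into 2 stretches of arm 2L. In the first, drm, sob and odd stand in a row, with 29.6 kb between drm and sob and 23.5 kb between sob and odd. This 87.5 kb held 12 summits, 137 per Mb, with signals from 6.28 to 211 and a median of 80.0. The second, around bowl, starts 145 kb after the first. The bodies of odd and bowl are 165 kb apart, which was too long to be counted as between members. Its 32.4 kb held 8 summits, 247 per Mb, with signals from 7.80 to 230 and a median of 94.6. The whole genome had 25.1 pooled summits per Mb, but windows placed on genes hold start sites, where summits are common, so the rates are not like for like.

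Across the 20 summits the median signal was 82.0, close to that of all pooled peaks. Of them 10 lay above the median of all peaks, 5 above its upper quartile of 134 and 9 below its lower quartile of 66.4. At 3 positions a pair of peaks overlapped, and the lower of each pair is called a companion here. The companions had signals of 6.28 between drm and sob, 34.2 upstream of sob and 7.80 at the bowl start site. With overlapping peaks merged, 17 regions remained.

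odd (FBgn0002985, 3604224 to 3606756 on the minus strand) had 1 tall peak. Its summit at 3606799 lay 43 bp upstream of the only start site. The signal there was 125 in the ranked list of replicate 1 and 83.1 in that of replicate 2, where it was higher than 99.8% and 99.3% of entries. It passed the threshold, an irreproducible discovery rate of 0.01, in the own list of replicate 1. In replicate 2 its −log10 rate was 1.87, just under the 2 that the threshold needs, although the signal was high. The GC content of 68.3% around this summit was above that of 99.4% of pooled summits.

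Both other summits assigned to odd were low and passed the threshold of neither replicate alone. One, at 3612211, lay 5455 bp upstream, with a pooled signal of 65.7 and replicate signals of 35.3 and 30.6. The other, at 3594207, lay beyond the 3′ end of odd towards sob, 17 bp outside the 10 kb reach, and had a pooled signal of 64.3 with 29.3 and 30.9 in the replicates. Both were in the conservative list, which the authors also made from both replicates.

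sob (FBgn0004892, 3578013 to 3580769, minus strand) had a low start-site peak that was not its tallest. That peak, with its summit 148 bp upstream at 3580917, had a signal of 48.3 in replicate 1 and 27.0 in replicate 2. It passed the threshold in replicate 1, and in replicate 2 its −log10 rate was 0.439. A companion summit 371 bp upstream had 34.2 in the pooled list and 12.5 in replicate 1, and in replicate 2 both shared the same entry. Neither was in the conservative list, so sob was the 1 member with no start-site summit there.

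The taller peaks near sob lay several kb away on both sides. Upstream, at 3588537 and 7768 bp from the start site, a peak of signal 102 stood in an exon of lncRNA:CR43823, a non-coding gene. Its replicate signals were 63.3 and 50.4, and both passed. It was the most AT-rich of the family summits, with a GC content of 16.8%. Downstream, at 3574150 and 3863 bp past the end of the gene, a peak of 94.3 had 26.3 in replicate 1 and 69.1 in replicate 2. This is the sob summit with CCAAT, and it was the only family summit that passed in replicate 2 and not in replicate 1. The own list of replicate 2 held 2 further peaks nearby, 7.49 and 7.25 kb from the start site, with signals of 27.2 and 12.9, and neither is in the pooled list.

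drm (FBgn0024244, 3539247 to 3548423, plus strand) had 3 summits in or close to its body. The tallest, at 3540155, stood in an intron 422 bp after the second of its start sites, with 188 in the pooled list. Its signals of 98.5 and 80.6 passed in both replicates. The summit at 3538695 was 552 bp upstream of the first start site, just outside the 500 bp limit. It had 110 in the pooled list and passed in both replicates, with 66.0 and 40.6, though in replicate 2 the −log10 rate was 2.01, at the edge of the threshold. The third, at 3545265, stood in a 5′UTR exon 6018 bp into the gene, next to the CCAAT box printed above. Its pooled signal was 107, and its replicate signals were 64.3, which passed, and 42.3, which did not.

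All 3 drm summits were thus higher in replicate 1 and had the same GC content, 54.5%. Between drm and sob, 20.7 kb after the first drm start site, a further pair of overlapping peaks shared 1 entry in each replicate. The taller had 54.3 in the pooled list, with 16.8 and 37.0 in the replicates, and passed in neither. It was also absent from the conservative list.

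bowl (FBgn0004893, 3771700 to 3784121, plus strand) held the most summits of the 4 genes and the tallest of all. The summit at 3771501 lay 199 bp upstream of the first of 4 start sites. Its signals of 107 and 127 passed in both replicates and were higher than 99.7% of entries in each. The peak was listed with a width of 84 bp, where the others of the family were all 330 bp wide. Overlapping it, a peak with its summit 7 bp after the start site had a pooled signal of 7.80 and no replicate entry of its own.

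Within the bowl gene 3 more summits stood in introns and coding sequence. The one at 3776776, in an intron 2162 bp upstream of the last start site, had 119 in the pooled list and 56.0 and 67.9 in the replicates, and passed in both. Its window has a GC content of 18.8% and is shown, from chr2L:3776726-3776826 on the plus strand, as an example of the AT-rich summits without CCAAT.
bowl, intron: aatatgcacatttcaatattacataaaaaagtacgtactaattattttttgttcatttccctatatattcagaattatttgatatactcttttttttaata

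The other intron summit, at 3773149, had 69.7 in the pooled list with 36.6 and 32.2 in the replicates. The coding one, at 3780077, had 58.1 with 30.7 and 34.6. Neither passed in a replicate of its own, though both were in the conservative list.

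Past the 3′ end of bowl the summits stood closer to bark than to any bowl start site. bark encodes a transmembrane protein of the junctions where 3 epithelial cells meet. The summit at 3786452, 2331 bp past the end of bowl, had a pooled signal of 149 and passed in both replicates with 47.7 and 103. Its nearest start site of any gene was that of a pseudogene, 714 bp away. The summit at 3789500, in a bark intron and 486 bp upstream of a bark start site, had 136 and passed with 55.9 and 86.4. The third, at 3787276, was 109 bp after the first bark start site, with 60.7 in the pooled list and 17.8 and 42.1 in the replicates, and passed in neither. All 3 were higher in replicate 2. They count for bowl only through the 10 kb reach. In the bodies of the 4 genes and the stretches between members alone there were 13 summits, and with a reach of 20 kb there were 21.

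Support in the replicates ranged from both to neither. Among the 20 family peaks 8 (40%) met thresholded peaks of both replicates, against 40.5% of all pooled peaks. Another 4 (20%) met one of replicate 1 alone, against 10.2%, and 1 (5%) one of replicate 2 alone, against 20.9%. The remaining 7 (35%, against 28.3% of all) met neither, and 15 (75%, against 80.0%) were in the conservative list. At drm, sob and odd 3 of 12 peaks had both replicates, 4 replicate 1 alone, 1 replicate 2 alone and 4 neither. At bowl 5 of 8 had both and 3 neither. Companions were counted as peaks of their own, that at sob under replicate 1 alone, that at bowl under both and the other under neither. The companion at sob met a thresholded peak by overlap only, as its own entry in replicate 1 had a −log10 rate of 0.330. At bowl the companion shared both replicate entries with the taller peak.

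**Figure D2:**
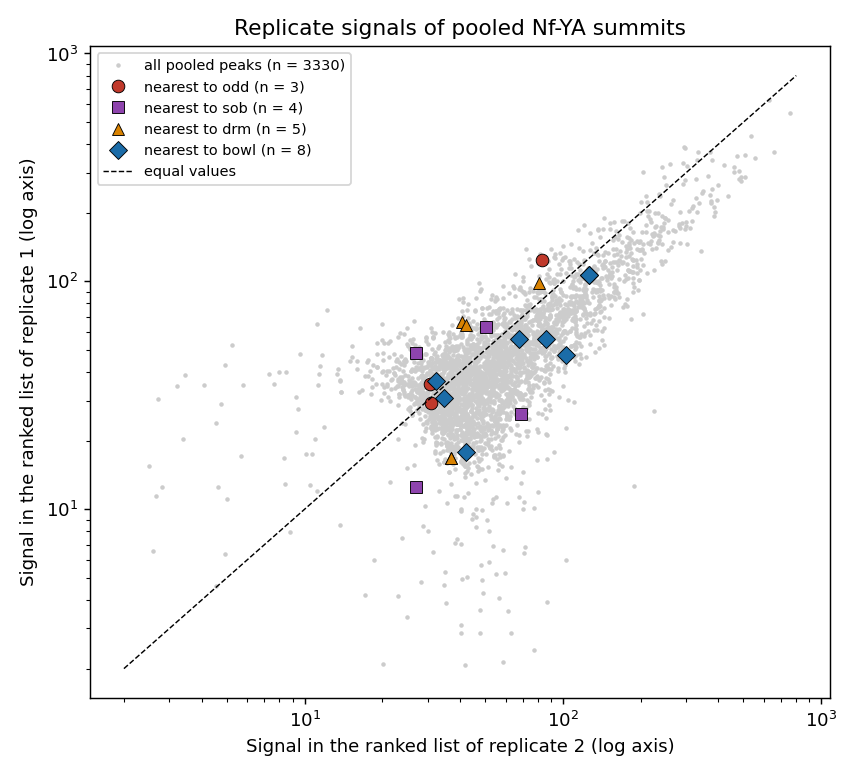
Signal of each pooled peak in the ranked list of replicate 2 (horizontal, log axis) and replicate 1 (vertical, log axis), for 3330 pooled peaks in grey and the family summits by nearest gene. The dashed line marks equal values. The line is passed upwards by 883 of the grey points, by most drm points and by 1 bowl region.

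Which replicate gave the higher signal varied along the family. Replicate 1 was higher in 883 of the 3330 pooled peaks that have an entry in both ranked lists, and the median ratio of replicate 1 to replicate 2 was 0.773. The lists are on their own scales, so a ratio is read against that median and not against 1. Overlapping pooled peaks were not merged for that median. Taking the tallest summit of each of the 17 family regions, 12 had a ratio above 0.773, and the ratios ran from 0.380, downstream of sob, to 1.79, at the sob start site. At drm, sob and odd 8 of 10 regions lay above 0.773, with a median ratio of 1.24. At bowl 4 of 7 did, with a median of 0.825. Counted against equal values instead, replicate 1 was higher in 7 of the 10 and in 1 of the 7, so the contrast between the stretches in these counts depends on the scale of the lists. With 1 entry per replicate for each summit there is no error for a ratio and no test of the difference.

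GC content varied along the family too. Around the 20 summits it ran from 16.8% to 68.3% with a median of 51.0%, and over all pooled summits the median was 35.6%. Of the 17 family regions 8 (47.1%) had a GC content of 50% or more, against 19.2% of the pooled peaks compared. Overlapping peaks were merged on the family side only, here and in the counts below, so these shares are not like for like. The ratio of replicate 1 to replicate 2 was above 0.773 in all 8 of those and in 4 of the 9 regions with less. Over all pooled peaks it was above 0.773 in 65.5% of the 641 with a GC content of 50% or more and in 46.3% of the 2689 with less. Against equal values, replicate 1 was higher in 7 of the 8 and 1 of the 9 family regions, and in 42.3% and 22.8% of the pooled peaks. The part of GC content in the differences between genes or replicates was not tested, and the division at 50% and the counts against each reference ratio were chosen after the values were seen.

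**Figure D3:**
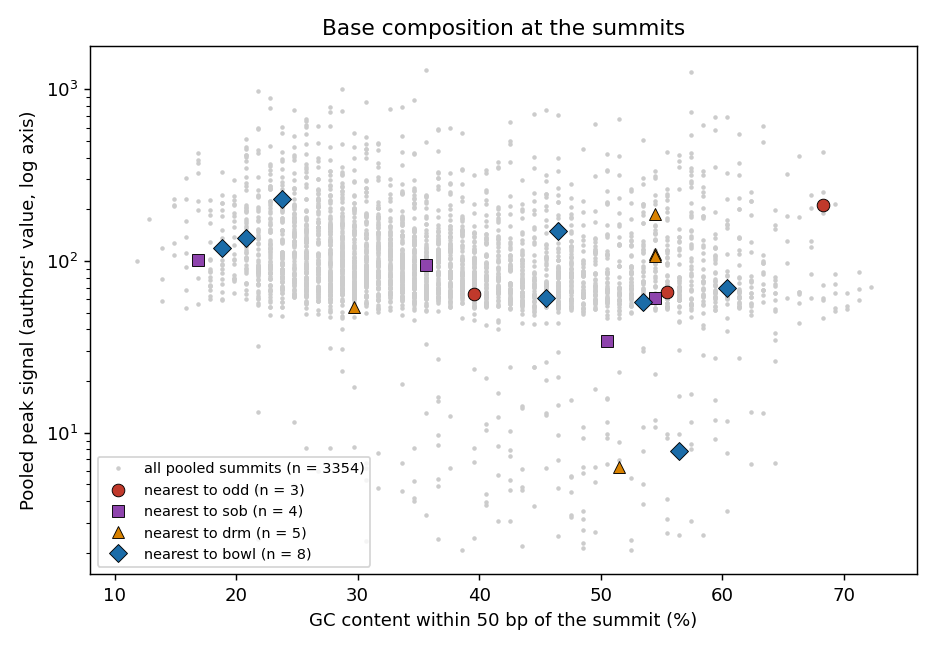
GC content within 50 bp of the summit (horizontal, percent) and the authors' pooled signal (vertical, log axis), for all 3354 pooled summits in grey and the 20 family summits by nearest gene. The odd start-site summit stands at 68.3% GC, and the tallest bowl summit at 23.8%.

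By position, 8 of the 20 summits (40%) lay within 500 bp of a start site of any gene, against 46.5% of all pooled summits. These were 1 each at odd and drm, a pair each at sob and bowl, and a pair at bark. Of the rest 7 (35%) were intergenic, against 14.5% of all, 2 (10%) in introns, against 34.5%, and 3 (15%) in exons, against 4.44%. The rule for the family takes in flanks of 10 kb and the stretches between members, so these shares are not like for like. Of the intergenic summits, the overlapping pair between drm and sob and the one at 3594207 are included only as lying between members. The 3 exon summits were in the 5′UTR of drm, in the coding sequence of bowl and in lncRNA:CR43823. Both intron summits were in bowl.

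Of the other motifs sought within 50 bp on both strands, GAGAG, the letters read by the GAGA factor, stood near 7 of the 20 summits (35%), against 13.8% of all pooled summits. Of these 7 summits 3 were the low companions, the only one at bowl among them, and all 7 windows had a GC content of 50% or more. With overlapping peaks merged, a count added after the values were seen, GAGAG was near 4 of the 17 regions (23.5%), against 13.3% of 3188 merged regions over the genome. GATAA, which GATA factors read, was near 6 (30%, against 20.6%) and TATAAA, the TATA box, near 4 (20%, against 18.3%). Merged the same way, GATAA was near 4 of the 17 regions (23.5%, against 20.7%) and TATAAA near 3 (17.6%, against 18.7%). CCAAT, with 3 of 20 (15%), stood beside 19.5% of all pooled summits, and the longer NF-Y motif, with 1 (5%), beside 2.50%. The Exd-Hox letters TGATNNAT were near 2 (10%, against 7.01%), and 1 of these matches overlapped a TATAAA match in the low peak between drm and sob. With overlapping peaks merged they were near 1 of the 17 regions (5.88%, against 7.12%). CAGGTA, read by the early activator Zelda, was near none (2.24% of all), as were CACACA (9.36%) and CAGTAGC (0.656%), a site reported for Odd family proteins in binding assays. The nearest CCAAT was a median of 215.5 bp from the family summits, with a range from 27 to 890 bp, and a median of 167 bp from all pooled summits.

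**Figure D4:**
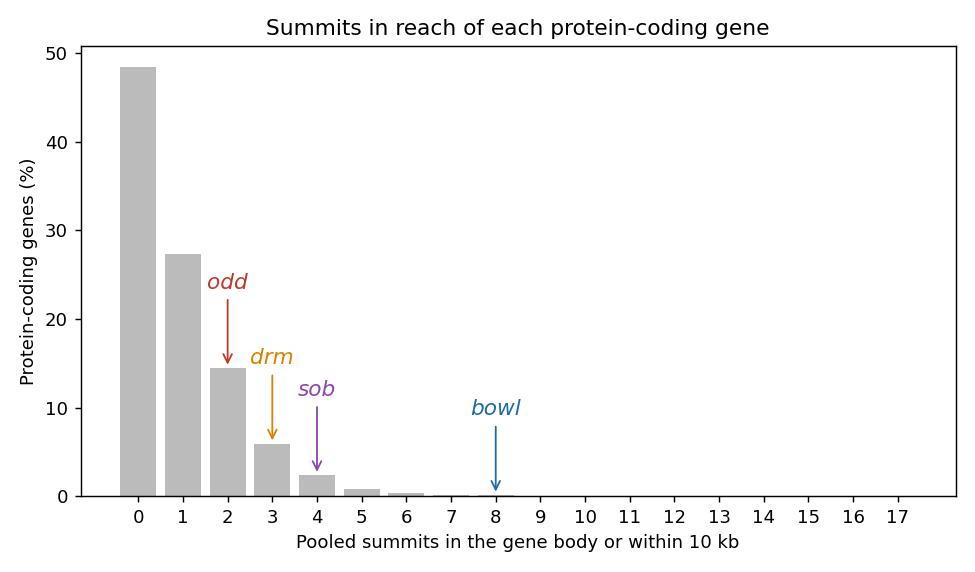
Share of protein-coding genes in percent (vertical) by the number of pooled summits in the gene body or within 10 kb (horizontal). Arrows mark odd with 2 summits, drm with 3, sob with 4 and bowl with 8.

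Counted gene by gene, odd had 2 summits in its body or within 10 kb, drm 3, sob 4 and bowl 8. Overlapping peaks were counted separately for every gene, the companions at sob and bowl included. The count for bowl also takes in the summits past its 3′ end that stood closer to bark. In the bodies alone there were 0 at odd, 0 at sob, 2 at drm and 4 at bowl. At least 1 such summit was found for 51.6% of protein-coding genes. As many as odd or more were found for 24.2% of genes, as many as drm for 9.75%, as many as sob for 3.85% and as many as bowl for 0.201%, or 28 genes. A longer gene has more room for summits, and the part of length in these counts was not tested. Among the 289 genes within 10% of the length of bowl, 2 (0.692%, bowl included) had as many. Among genes as long as drm the share was 13.3% of 300, for sob 3.52% of 938 and for odd 22.9% of 1034. sob and odd have bodies of nearly the same length, 2757 and 2533 bp, and sob had more summits but the lower start-site signal. The 4 of sob include its companion, and the 2 of odd leave out the summit 17 bp beyond the 10 kb reach. The higher count of sob thus depends on how overlapping peaks and the reach are treated.

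The signals of the summits in reach summed to 277 for odd, 291 for sob, 404 for drm and 831 for bowl. Outside the region, the protein-coding gene with the same number of summits and the closest sum was pcs for odd (277), Klp98A for sob (291), CG13891 for drm (405) and CG14434 for bowl (801). For odd, sob and drm there were at least 324 candidates each. For bowl there were 14, so the likeness is less close, with an absolute log2 difference of 0.05. Of these 4 genes only CG14434 had a summit within 500 bp of a start site.

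**Figure D5:**
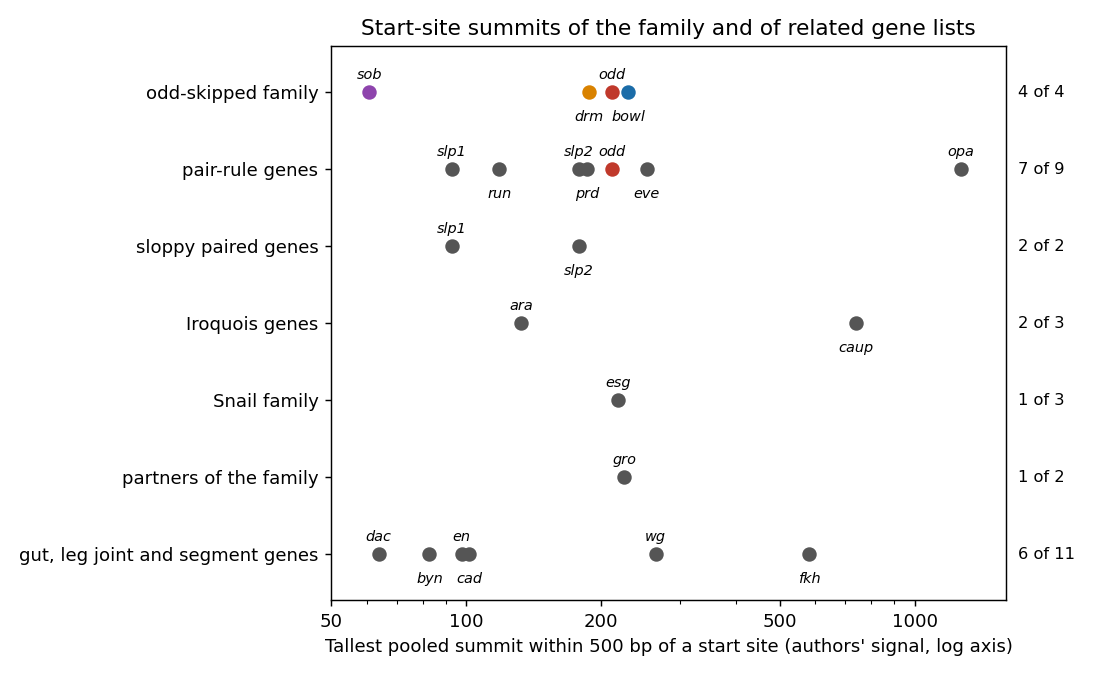
Signal of the tallest pooled summit within 500 bp of a start site (horizontal, authors' value, log axis) for each gene of the family and of 6 related lists, with the number of genes that have one at the right. drm, odd and bowl stand between 188 and 230, within the pair-rule range of 93.0 to 1266, and sob, at 60.9, stands below it. odd is itself a pair-rule gene, so it lies in that range by definition.

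Genes that work with the family were read the same way, beside the 12.5% of all protein-coding genes that have a start-site summit. Of 9 pair-rule genes, the class to which odd belongs, 7 had one. The signal was highest at opa, a ZIC zinc finger gene, with 1266, followed by the homeobox gene eve (253), odd (211), the Pax gene prd (186), the forkhead gene slp2 (178), the Runx gene run (119) and slp1, the neighbour of slp2 (93.0). In each of these genes except odd the peak passed in both replicates. ftz and hairy had no summit within 10 kb, and their nearest were 14212 and 20689 bp away.

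Of the protein partners, gro, the gene of the corepressor Groucho that Odd and Bowl recruit, had a start-site summit of 225, with 76.5 in replicate 1 and 144 in replicate 2. lin, the gene of Lines, which Drm binds, had none within 10 kb, and its nearest summit was 28697 bp away.

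Among 11 genes of the gut, the leg joints and the segments, 6 had a start-site summit. A summit in the body or within 10 kb was found for 8 (72.7%), against 51.6% of all protein-coding genes. The 6 were fkh, a FoxA gene of the gut (581), the Wnt gene wg (264), the homeobox genes cad (101) and en (97.8), the hindgut T-box gene byn (82.8) and the leg gene dac (63.8). The peak of byn passed in replicate 2 alone, and that of dac in replicate 1 alone. hh and the Notch pathway genes Delta, Ser and N had none, nor had rho. Of the Notch pathway genes only N had a summit within 10 kb of its body.

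Other tandem families of transcription factor genes varied. Both slp genes had a start-site summit, as had ara (132) and caup (739) of the 3 Iroquois homeobox genes, while mirr had its nearest summit 604 bp from a start site. Of the 3 Snail family genes only esg had one (218). The lists hold few genes each and overlap, as odd, slp1 and slp2 are themselves pair-rule genes.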

How the data were processed

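Nf-YA-eGFP ChIP-seq peak lists were used from 2 biological replicates of 1 group of whole embryos, with chromatin sonicated to fragments of 200 to 800 bp per the labels. The peak signal is the value the authors deposited, with no scale stated in the files. It was read within a list, except where replicates were compared with each other or with the pooled value. The −log10 irreproducible discovery rate is the authors' deposited value, and thresholded lists hold rates of 0.01 or lower, that is 2 or more on the −log10 scale. Peaks are in dm6 coordinates per the labels. The aligner and peak caller are not given in the sources used here. Depth is unknown, as reads were not analysed here, and 16 columns of values for unnamed inputs were not used.

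Each summit was given to the family gene with the nearest start site and placed by the Ensembl annotation BDGP6.54, release 115, without transposable elements. Its replicate signal is that of the ranked entry that shares at least 1 bp and has the nearest summit. Sequence was read from the RefSeq copy of the dm6 genome. The members and the gene lists were chosen with earlier results of these data known. Genes named were the members, genes at a family summit, list genes with a start-site summit, and for each member the gene with as many summits and the closest summed signal. List genes named for having no summit were chosen after their values were seen. The listed symbols h and Dl are hry and Delta in the annotation. With 1 group of 2 replicates no test across samples was possible, so all values are descriptions. Tried instead were the conservative list, each replicate's own thresholded list, peaks of the upper 50% of signals, overlapping peaks merged, and other distances, windows and motif forms. The code was tested on simulated data. Scripts ran under Python 3.11.15 with numpy 2.4.6 and scipy 1.17.1, and figures were drawn with matplotlib 3.10.9.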

Additional observations from a re-analysis of the deposited data

How the results depend on the processing

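The number of family summits, 20, was 10 without replicate 1 and 10 without replicate 2, where the other replicate's own list was used. It was 13 with gene bodies and stretches between members alone and 10 in the upper 50% of peaks by signal. The number of members with a start-site summit, 4, was 2 without replicate 1, 4 without replicate 2, and 2 within 100 bp. CCAAT stood near 3 summits, and near 0 within 25 bp, 6 within 100 bp and 1 with the longer motif, and without either replicate near 1. The 8 peaks thresholded in both replicates became 7 to 8. Of 25 alternative counts 14 stayed within 1.5 times the main count and 11 did not. Of 55 alternative signals of single summits, 36 differed from the pooled value by at least 1 SD of the 2 replicate values, and the cause was not tested. The conservative list repeats the pooled signal at its 15 family summits, so those values could not differ. All other alternatives set a replicate's own signal against the pooled one, and the lists are on their own scales. The count of 36 therefore says little about how far the signals hold. The companions took the replicate entry of the taller overlapping peak where they had none of their own. Depth is unknown, so a missing peak is not shown to be missing binding. No paired analysis was possible because there is only 1 group.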
